A study of Mus musculus with 8 samples.

Results

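The zinc transporters and metallothioneins described here are 10 mouse genes, Slc30a9, Slc30a1, Slc30a5, Slc30a7, Slc39a1, Slc39a7, Slc39a13, Slc39a14, Mt1 and Mt2, picked by symbol from 17068 genes with an expression value. RNA-seq gave their levels in osteoblastic cells, or OBCs, the bone-forming cells of the skeleton. These cells were sorted fresh from collagenase-digested long bones of female C57BL/6J mice aged about 10 weeks. The 4 L-OBCs libraries came from mice with BCR-ABL+ B-ALL, a leukemia of B-cell precursors that fills the marrow, and the 4 C-OBCs libraries from healthy mice. The sort markers, the way leukemia was established and whether each library is a separate animal are not given in the sources used here, so each p-value reflects the spread among these libraries, which may be technical. Slc30a9 was included because its level was lower in every L-OBCs library, and that difference is therefore a description without a test.

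Cells cannot make or destroy zinc, so its distribution rests on transporters and binding proteins. Most members of the Slc30 (ZnT) family move zinc out of the cytosol, either across the plasma membrane or into organelles. Slc30a9 differs from them in that it exports zinc from mitochondria, toward the cytosol. Members of the Slc39 (ZIP) family move it into the cytosol, and metallothioneins, small cysteine-rich proteins, bind it there. The zinc-sensing transcription factor Mtf1 induces Mt1, Mt2 and Slc30a1 through metal response elements. In bone, zinc delivered to the secretory pathway is needed by tissue-nonspecific alkaline phosphatase, the mineralization enzyme encoded by Alpl.

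Levels are FPKM (fragments per kilobase of transcript and sequencing depth of the library). They are scaled for transcript length, but the length trends given below limit comparisons between genes of unlike length. Differences are L-OBCs minus C-OBCs in log2(FPKM + 1), a scale that understates differences of low genes. They come from limma, a linear model with moderated variances, fitted to the 11214 genes that reached 1 FPKM in at least 4 libraries. Of these, 0 passed a Benjamini-Hochberg adjusted p of 0.05 in either direction, and 279 higher and 463 lower genes had an unadjusted p under 0.05. Summed FPKM ran from 456191 to 632055 in L-OBCs and from 477127 to 500933 in C-OBCs libraries. Libraries differed in their content of short transcripts. The Spearman rho between a gene's deviation from its mean over libraries and its transcript length was -0.35, -0.38, -0.10 and 0.36 in L-OBCs libraries 1 to 4, and 0.05, 0.15, 0.13 and 0.34 in C-OBCs libraries 1 to 4. L-OBCs libraries 1 and 2 were thus the richest in short transcripts, and values without them are given where they alter a result. The 7 osteoblast markers summed to 16324 to 23080 FPKM in L-OBCs and 18500 to 23414 FPKM in C-OBCs libraries. Single markers were less even than this sum. Bglap had 6006, 10220, 1919 and 1097 FPKM in L-OBCs libraries 1 to 4, against 2293 to 3830 FPKM in C-OBCs. Col1a1 went the other way, with 5265, 3228, 6305 and 10300 FPKM in L-OBCs libraries 1 to 4, against 6631 to 8792 FPKM in C-OBCs.

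Of the 10 genes, 9 were tested and 0 passed the adjusted threshold, against 0% of all genes tested in each direction. All 4 L-OBCs libraries lay below all C-OBCs libraries in 1 of the 9, Slc30a9 (2.9% of all genes tested), and above them in 0 of the 9 (0.954% of all genes tested). The differences were negative in 5 and positive in 4 of the 9, with a median of -0.09, while over all genes tested 53.6% were negative, 46.4% were positive and the median was -0.02. An unadjusted limma p under 0.05 was found for 2 of the 9 in the lower direction, Slc30a9 and Slc30a5 (4.13% of all genes tested), and for 0 of the 9 in the higher direction (2.49%). Slc30a9 was chosen because its libraries separate the groups in this contrast. Nothing is therefore read from the counts above that include it, whether of separated libraries, of negative differences or of p-values.

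**Figure D1:**
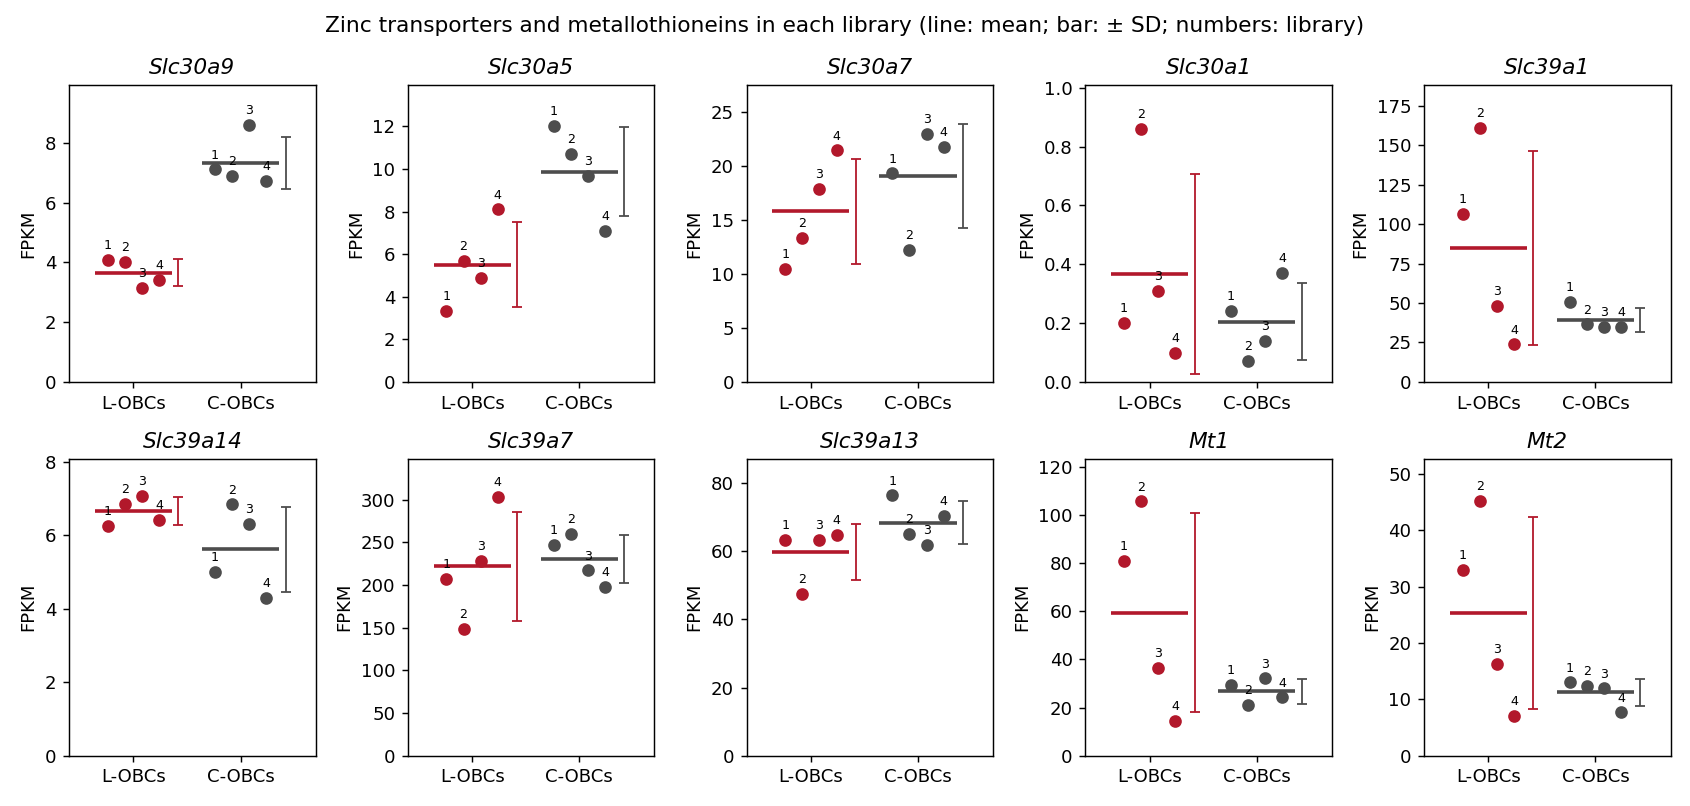
FPKM of each of the 10 genes in the 4 L-OBCs and 4 C-OBCs libraries (dots, numbered by library), with the group mean (line) and SD (bar). Slc30a9 shows separate groups, at 3.14 to 4.07 FPKM in L-OBCs and 6.72 to 8.60 FPKM in C-OBCs, while Slc39a1, Mt1 and Mt2 are high in L-OBCs libraries 1 and 2.

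Among the Slc30 transporters, Slc30a9, which exports zinc from mitochondria, stood at 4.07, 4.01, 3.14 and 3.41 FPKM in L-OBCs libraries 1 to 4, against 7.11, 6.89, 8.60 and 6.72 FPKM in C-OBCs libraries 1 to 4. The highest L-OBCs value lay well under the lowest C-OBCs value, and the 4 libraries within each group were close to each other. The mean was 3.66 ± 0.456 FPKM in L-OBCs and 7.33 ± 0.862 FPKM in C-OBCs (SD, n = 4 each), a ratio of 0.499 and a log2 difference of -0.84 (SE 0.17). The gene (gene ID 109108) lies on chromosome 5, 67306955 to 67356142, plus strand (GRCm38.p6), and its transcripts are long, with a median of 5680 bases. Correcting every library for its trend with transcript length gave -0.72, and leaving out L-OBCs libraries 1 and 2 gave -0.96. Sorted cells were measured in bulk, so fewer cells of a type and less RNA per cell cannot be told apart, here and below. The sum of 4 Schwann cell markers also separated the groups, at 40.3 to 62.1 FPKM in L-OBCs and 10.7 to 38.4 FPKM in C-OBCs libraries, and its part in the Slc30a9 difference was not tested. Sums of the other marker lists overlapped between the groups, among them 5 osteoclast markers at 216 to 284 FPKM in L-OBCs and 181 to 294 FPKM in C-OBCs libraries.

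Tmem33, the nearest gene upstream of Slc30a9 on chromosome 5 in the table, did not share its separation of groups. Tmem33 averaged 10.4 FPKM in L-OBCs and 11.3 FPKM in C-OBCs, with 8.96 to 12.01 FPKM in L-OBCs and 8.88 to 13.08 FPKM in C-OBCs libraries. Bend4, the nearest downstream, was at or under 0.51 FPKM in every library, too low to show such a separation. The 5 genes with the most similar profile over the 8 libraries, among 7102 with a mean of at least 5 FPKM, were Exo5, Taf13, Psme3, Golm2 and Imp4. Their Pearson r with Slc30a9 was 0.984, 0.965, 0.964, 0.926 and 0.918 over the 8 libraries, as a description. Exo5, a single-strand DNA exonuclease, averaged 4.74 FPKM in L-OBCs and 7.83 FPKM in C-OBCs. Psme3, a proteasome activator subunit, averaged 3.81 FPKM in L-OBCs and 7.24 FPKM in C-OBCs. Slc30a5 stood at rank 292 of these genes (r = 0.70).

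Slc30a5, which loads zinc into the early secretory pathway as a heterodimer with Slc30a6, had 3.34, 5.68, 4.90 and 8.10 FPKM in L-OBCs libraries 1 to 4, against 12.02, 10.69, 9.69 and 7.09 FPKM in C-OBCs libraries 1 to 4. Only L-OBCs library 4 reached the range of the C-OBCs libraries. The mean was 5.50 ± 1.98 FPKM in L-OBCs and 9.87 ± 2.09 FPKM in C-OBCs (SD, n = 4 each), with a log2 difference of -0.77 (SE 0.25; limma adjusted p = 0.695). With the length trend removed the difference was -0.72, and without L-OBCs libraries 1 and 2 it was -0.55. Its partner Slc30a6 averaged 18.4 ± 1.43 FPKM in L-OBCs and 22.7 ± 2.69 FPKM in C-OBCs (SD, n = 4 each), a log2 difference of -0.28 (SE 0.16; limma adjusted p = 0.695). The groups overlapped in Slc30a6, at 17.59 to 20.56 FPKM in L-OBCs and 20.11 to 26.48 FPKM in C-OBCs libraries. Slc30a5 (69048) lies on chromosome 13, 100802645 to 100833480, minus strand.

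Slc30a7, a Golgi zinc importer that also serves alkaline phosphatase, had 10.4, 13.3, 17.9 and 21.4 FPKM in L-OBCs libraries 1 to 4, against 19.3, 12.2, 22.9 and 21.8 FPKM in C-OBCs libraries 1 to 4. The groups overlapped, with the 2 lowest values in L-OBCs library 1 and C-OBCs library 2. The log2 difference was -0.27 (SE 0.26; limma adjusted p = 0.803), and it was 0.07 without L-OBCs libraries 1 and 2. This gene (66500; chromosome 3, 115938973 to 116007414, minus strand) has the longest transcript of the 10, at 9020 bases, and the pseudogene Gm6649 holds 1135 of its 11133 distinct 31-base subsequences. Slc30a1, the plasma membrane zinc exporter, was near the floor of the table, at 0.20, 0.86, 0.31 and 0.10 FPKM in L-OBCs libraries 1 to 4 and 0.24, 0.07, 0.14 and 0.37 FPKM in C-OBCs libraries 1 to 4. It reached 1 FPKM in 0 of the 8 libraries and was not tested. Slc30a1 (22782) lies on chromosome 1, 191906697 to 191913248, plus strand, and 468 of its 5244 exonic bases overlap a gene on the opposite strand. The library kit does not mark strand, so reads of that pair cannot be told apart.

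Among the uptake transporters, Slc39a1, a plasma membrane zinc importer, varied most within L-OBCs. It had 106, 161, 47.9 and 23.8 FPKM in L-OBCs libraries 1 to 4, against 50.5, 36.5, 34.8 and 35.0 FPKM in C-OBCs libraries 1 to 4. L-OBCs libraries 1 and 2 lay above all C-OBCs libraries, library 3 lay within their range, and library 4 lay below it. The mean was 84.8 ± 61.5 FPKM in L-OBCs and 39.2 ± 7.58 FPKM in C-OBCs (SD, n = 4 each). The log2 difference of 0.77 (SE 0.49; limma adjusted p = 0.701) was within the spread between libraries, and it was -0.19 without L-OBCs libraries 1 and 2. With the length trend removed it was 0.82, and its transcript has 2364 bases. The gene (30791) lies on chromosome 3, 90248190 to 90253613, plus strand. A pseudogene, Slc39a1-ps, holds 617 of the 2333 distinct 31-base subsequences of Slc39a1 transcripts, so its value is uncertain where reads could be split.

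Slc39a14, a plasma membrane importer of zinc, manganese and iron that interleukin-6 induces in mouse liver, was nearly even across L-OBCs. It had 6.25, 6.85, 7.08 and 6.42 FPKM in L-OBCs libraries 1 to 4, against 5.01, 6.84, 6.31 and 4.30 FPKM in C-OBCs libraries 1 to 4. The groups overlapped, with C-OBCs libraries 1 and 4 below all L-OBCs libraries. The mean was 6.65 ± 0.382 FPKM in L-OBCs and 5.61 ± 1.17 FPKM in C-OBCs (SD, n = 4 each), and the log2 difference was 0.23 (SE 0.18; limma adjusted p = 0.756). Its close paralog Slc39a8 averaged 5.63 ± 0.541 FPKM in L-OBCs and 4.47 ± 0.736 FPKM in C-OBCs (SD, n = 4 each), a log2 difference of 0.28 (SE 0.18; limma adjusted p = 0.701). Slc39a14 (213053) lies on chromosome 14, 70303467 to 70351452, minus strand.

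Slc39a7, which releases zinc from the endoplasmic reticulum, was the most abundant of the 10 genes in both groups. It had 207, 149, 228 and 303 FPKM in L-OBCs libraries 1 to 4, against 247, 260, 217 and 198 FPKM in C-OBCs libraries 1 to 4. L-OBCs libraries 2 and 4 held the lowest and highest values of all 8, and the C-OBCs libraries lay between them. The log2 difference was -0.09 (SE 0.23; limma adjusted p = 0.937), and it was 0.08 without L-OBCs library 2 and 0.20 without L-OBCs libraries 1 and 2. Slc39a7 (14977) lies on chromosome 17, 34028266 to 34031690, minus strand. A processed transcript on the same strand, Gm20427, overlaps 2084 of its 2584 exonic bases, so reads could be shared between them.

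Slc39a13, a transporter of the Golgi and vesicles whose loss causes a skeletal and connective tissue disorder in mice and humans, was the steadiest of the abundant importers. It had 63.4, 47.4, 63.4 and 64.8 FPKM in L-OBCs libraries 1 to 4, against 76.4, 65.1, 61.8 and 70.3 FPKM in C-OBCs libraries 1 to 4. The groups overlapped, and L-OBCs library 2 stood below the rest. The mean was 59.7 ± 8.28 FPKM in L-OBCs and 68.4 ± 6.37 FPKM in C-OBCs (SD, n = 4 each), and the log2 difference was -0.20 (SE 0.17; limma adjusted p = 0.763). It was -0.093 without L-OBCs library 2 and -0.088 without L-OBCs libraries 1 and 2. Slc39a13 (68427) lies on chromosome 2, 91061781 to 91070441, minus strand, where 215 of its 4869 exonic bases overlap Psmc3 on the opposite strand.

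The metallothionein genes Mt2 and Mt1 lie side by side on chromosome 8, both on the plus strand. Mt2 (17750) spans 94172618 to 94173567 and Mt1 (17748) 94178883 to 94180327. Their promoters are shown because both genes varied together across libraries and are textbook targets of Mtf1. Each window, from RefSeq (GRCm38.p6), runs from 250 bases before to 50 bases after an annotated start. For Mt1 that start lies inside the span given above, so most of its window, 94178839 to 94179138, lies within the gene. Capitals mark the core of the metal response element, TGCACNC or TGCGCNC, on either strand.
Mt1, chr8:94178839-94179138, plus strand: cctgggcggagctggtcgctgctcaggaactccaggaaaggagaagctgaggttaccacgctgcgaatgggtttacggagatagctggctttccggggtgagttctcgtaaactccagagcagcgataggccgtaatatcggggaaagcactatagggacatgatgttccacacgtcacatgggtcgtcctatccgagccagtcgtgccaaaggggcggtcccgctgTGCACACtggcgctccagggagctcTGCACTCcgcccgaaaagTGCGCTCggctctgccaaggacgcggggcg
Mt2, chr8:94172368-94172667, plus strand: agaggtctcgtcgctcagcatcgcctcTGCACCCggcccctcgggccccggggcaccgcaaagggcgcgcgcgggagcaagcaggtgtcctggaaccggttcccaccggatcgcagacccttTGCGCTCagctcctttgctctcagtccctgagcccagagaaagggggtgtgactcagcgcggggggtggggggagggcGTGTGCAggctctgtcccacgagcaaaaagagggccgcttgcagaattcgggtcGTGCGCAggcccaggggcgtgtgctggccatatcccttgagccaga
The core occurred 3 times in the Mt1 window and 4 times in the Mt2 window. Of 32851 promoter windows of 300 bases, 25.7% held it at least once, 1.97% at least 3 times and 0.517% at least 4 times. The windows of Slc30a1, Slc30a5 and Slc39a13 held 2, 1 and 1 matches, and those of Slc30a9, Slc30a7, Slc39a1 and Slc39a7 held 0. A match in these letters is a description and not a shown binding site.

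Mt1 had 81.04, 106, 36.3 and 14.6 FPKM in L-OBCs libraries 1 to 4, against 29.4, 20.9, 32.1 and 24.2 FPKM in C-OBCs libraries 1 to 4. Libraries 1 to 3 of L-OBCs lay above all C-OBCs libraries and library 4 below them all. The mean was 59.4 ± 41.4 FPKM in L-OBCs and 26.7 ± 5.03 FPKM in C-OBCs (SD, n = 4 each), with a log2 difference of 0.80 (SE 0.51; limma adjusted p = 0.701). Mt2 had 33.0, 45.1, 16.2 and 7.07 FPKM in L-OBCs libraries 1 to 4, against 12.99, 12.4, 11.9 and 7.68 FPKM in C-OBCs libraries 1 to 4. It showed the same order of L-OBCs libraries as Mt1, with library 4 below all C-OBCs libraries. Its mean was 25.4 ± 17.0 FPKM in L-OBCs and 11.3 ± 2.42 FPKM in C-OBCs (SD, n = 4 each), with a log2 difference of 0.84 (SE 0.47; limma adjusted p = 0.695). Neither difference exceeded the spread between libraries. The ratio of Mt1 to Mt2 stayed between 2.06 and 2.46 in L-OBCs and between 1.68 and 3.15 in C-OBCs libraries. An antisense gene, Gm45774, overlaps 432 of the 588 exonic bases of Mt2, and without strand its reads cannot be told apart from those of Mt2.

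The metallothionein differences were of the size shared by short transcripts in these libraries. Mt1 and Mt2 transcripts have median lengths of 633 and 450 bases. The 318 genes tested with a length of up to 700 bases had a median log2 difference of 0.81, against -0.04 for the 2828 genes of 2000 to 3000 bases, the class of Slc39a1. Without L-OBCs libraries 1 and 2, the median of the short class was -0.10, and the differences were -0.18 for Mt1 and -0.03 for Mt2. Leaving out instead L-OBCs library 4, at the other end of the length trend (rho 0.36), gave 1.33 for Mt1 and 1.32 for Mt2. With the length trend removed, the differences were 0.07 for Mt1 and -0.14 for Mt2.

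**Figure D2:**
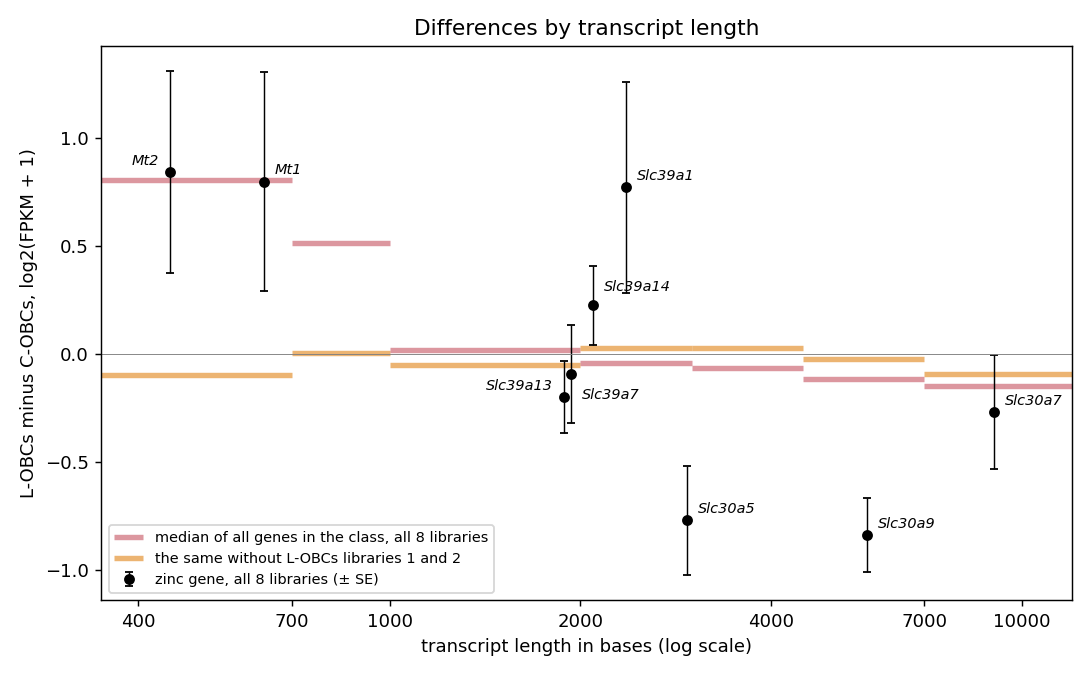
Log2 difference (L-OBCs minus C-OBCs, ± SE) of the 9 genes tested against transcript length in bases (log axis), with the median of all genes per length class in all 8 libraries and without L-OBCs libraries 1 and 2. Mt1 and Mt2 sit at the median of their class (0.81), while Slc39a1, Slc30a5 and Slc30a9 sit away from theirs.

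Over the 8 libraries, the metallothioneins followed a list of ribosomal protein genes, whose transcripts are not all short (Rpl5 has 2045 bases). The mean log2(FPKM + 1) of 19 such genes was 6.84, 6.75, 5.52 and 4.52 in L-OBCs libraries 1 to 4 and 5.46, 5.18, 5.07 and 4.80 in C-OBCs libraries 1 to 4. In a family of 4 correlations with exact two-sided permutation tests and Benjamini-Hochberg adjustment, this mean correlated with Mt2 at Pearson r = 0.980 (p = 0.000223, adjusted p = 0.000893; Spearman rho = 0.976, p = 0.000397, adjusted p = 0.00159). Without the 2 libraries farthest from the median, L-OBCs 1 and 2, r was 0.955 (exact permutation p = 0.00139). The same mean correlated with Mt1 at r = 0.96 (exact permutation p = 0.00134, adjusted p = 0.00179; rho = 0.857, p = 0.0107, adjusted p = 0.0143), and at 0.81 without those libraries (exact permutation p = 0.0472). Mt1 correlated with Mt2 at r = 0.963 (exact permutation p = 0.000818, adjusted p = 0.00164; rho = 0.881, p = 0.00724, adjusted p = 0.0143). Without L-OBCs libraries 1 and 2 this pair had r = 0.782 (exact permutation p = 0.0708), so its call rests on those libraries. The 4th relation of the family, Slc30a9 with the ribosomal mean, had r = -0.33 (rho = -0.19), and r = 0.10 without those libraries. Slc30a9 was chosen for values that separate the groups, so its correlation is a description and nothing is read from it.

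**Figure D3:**
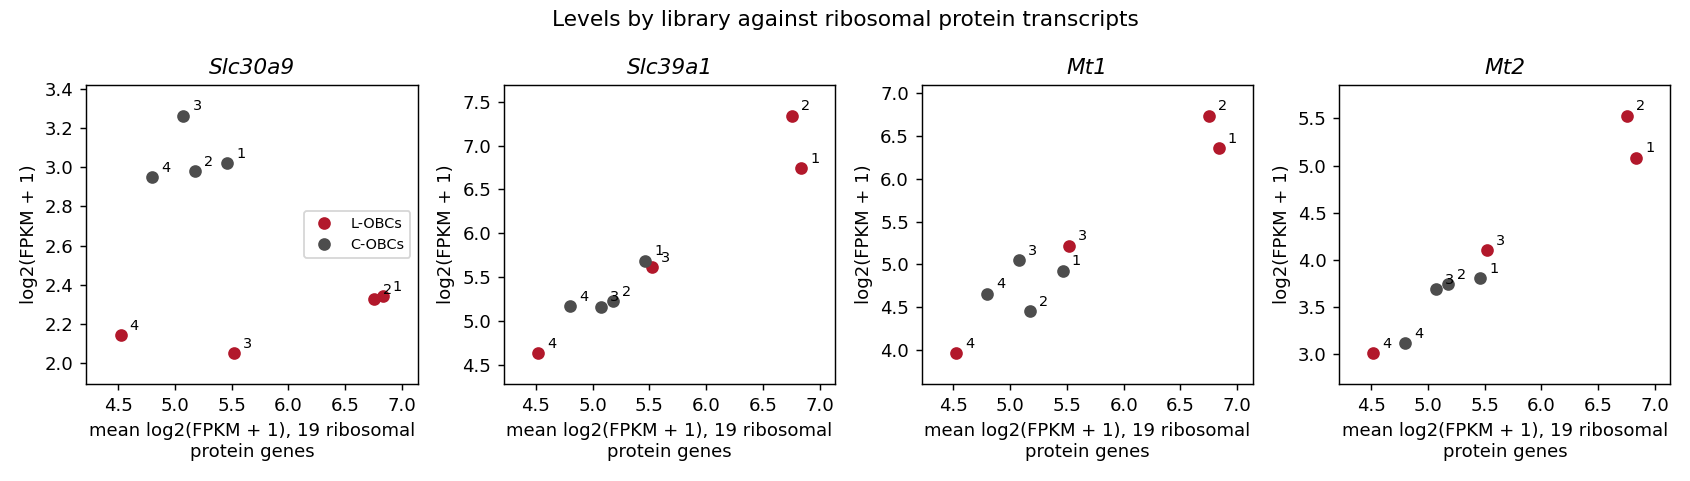
log2(FPKM + 1) of Slc30a9, Slc39a1, Mt1 and Mt2 in each library against the mean log2(FPKM + 1) of 19 ribosomal protein genes (red, L-OBCs; grey, C-OBCs; numbers, library). Slc39a1, Mt1 and Mt2 are high in L-OBCs libraries 1 and 2 and low in L-OBCs library 4, while every L-OBCs value of Slc30a9 lies below every C-OBCs value.

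The 5 genes most like Mt1 in profile, among the same 7102 genes, were Lsm7, Timm10b, Czib, Pbdc1 and Surf2, with Pearson r from 0.986 to 0.993 over the 8 libraries. Their transcript lengths ran from 511.5 bases (Timm10b) to 1938 bases (Pbdc1). Slc39a1 stood at rank 59 of these genes (r = 0.97) and Mt2 at rank 104 (r = 0.96), as a description. Beside Mt1 and Mt2, Nup93, the next gene downstream, averaged 15.3 FPKM in L-OBCs and 15.8 FPKM in C-OBCs. Mt3, the brain metallothionein upstream of Mt2, was at or under 0.36 FPKM in every library. The summed B-lineage and macrophage markers were also highest in L-OBCs libraries 1 and 2. The 9 B-lineage markers summed to 10.4, 18.2, 4.57 and 2.58 FPKM in L-OBCs libraries 1 to 4 and to 1.26 to 4.36 FPKM in C-OBCs, and Pax5 and Rag1 among them were at or under 0.12 FPKM in every library. The 8 macrophage markers summed to 138, 165, 105 and 71.3 FPKM in L-OBCs libraries 1 to 4 and to 69.6 to 91.1 FPKM in C-OBCs. Among them Lyz2 had 106.9 and 114.0 FPKM in L-OBCs libraries 1 and 2, against 34.75 to 47.15 FPKM in C-OBCs. Cd68 lay within the C-OBCs range in both, with 7.12 and 8.27 FPKM, against 6.15 to 11.41 FPKM in C-OBCs. Cd14 lay above that range in L-OBCs library 2 but not in library 1, with 39.04 and 20.96 FPKM, against 20.76 to 35.86 FPKM in C-OBCs. Adgre1 and Mpeg1 were at or under 0.65 FPKM in every library. The 6 erythroid markers summed to 323, 1446, 61.0 and 3.60 FPKM in L-OBCs libraries 1 to 4 and to 21.7 to 644 FPKM in C-OBCs, so that only L-OBCs library 2 lay above the C-OBCs range. The part of these cells in the Mt1, Mt2 and Slc39a1 values was not tested.

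**Figure D4:**
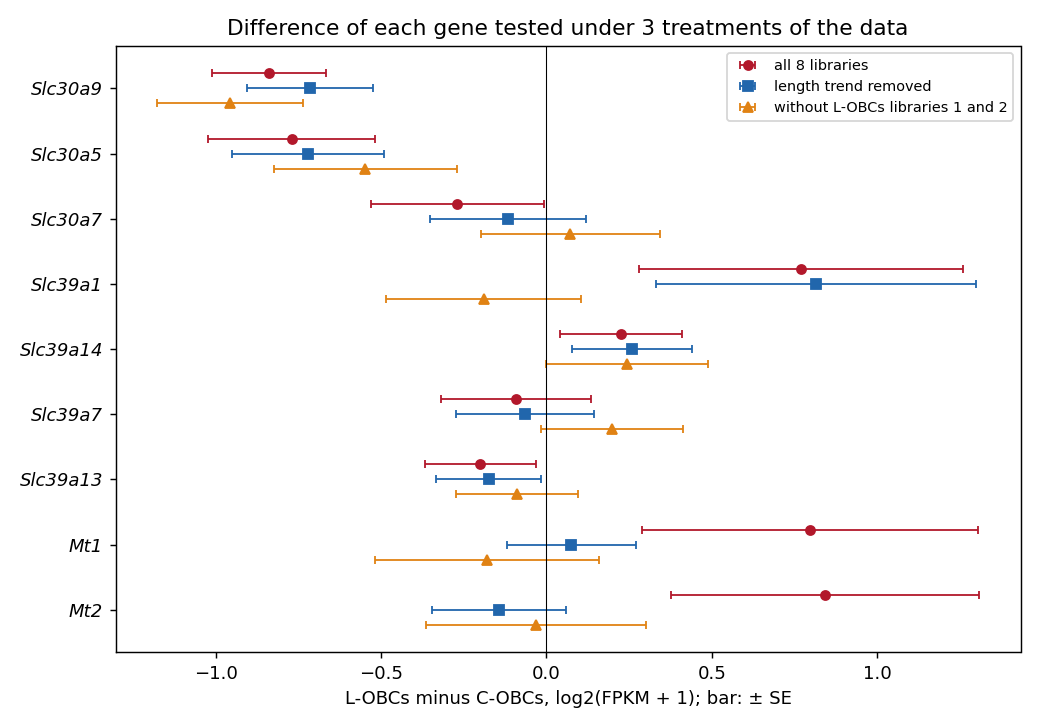
Log2 difference (L-OBCs minus C-OBCs on log2(FPKM + 1), ± SE) of the 9 genes tested with all 8 libraries, with the length trend removed and without L-OBCs libraries 1 and 2. Slc30a9 lies between -0.96 and -0.72 and Slc30a5 between -0.77 and -0.55 in these 3 treatments, while Slc39a1, Mt1 and Mt2 lie at -0.19, -0.18 and -0.03 without those libraries.

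The order of levels was similar at the top and bottom of both groups. It compares genes of unlike transcript length, and libraries differed in their trend with length. In L-OBCs the means ran from Slc39a7 through Slc39a1, Slc39a13, Mt1, Mt2, Slc30a7, Slc39a14, Slc30a5 and Slc30a9 to Slc30a1. In C-OBCs they ran from Slc39a7 through Slc39a13, Slc39a1, Mt1, Slc30a7, Mt2, Slc30a5, Slc30a9 and Slc39a14 to Slc30a1. In L-OBCs the library ranges of neighbours in this order overlapped except between Slc30a7 and Slc39a14 and between Slc30a9 and Slc30a1. In C-OBCs, ranges did not overlap between Slc39a7 and Slc39a13, Slc39a13 and Slc39a1, Slc39a1 and Mt1, or Slc39a14 and Slc30a1.

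Of 21 other zinc handling genes listed, 17 were in the table and 9 were tested, of which 0 passed the limma threshold in either direction (0% of all genes tested in each). An unadjusted limma p under 0.05 was found for 0 of the 9, against 2.49% higher and 4.13% lower of all genes tested. Their differences ran from -0.36 to 0.28, with 7 negative and 2 positive and a median of -0.09. Over all genes tested, 53.6% were negative, 46.4% were positive and the median was -0.02. Without L-OBCs libraries 1 and 2, the differences of Slc30a4, Slc39a6, Slc39a9 and Slc39a11 changed sign. The lowest was that of Slc39a10, a plasma membrane importer, at 4.13 ± 1.28 FPKM in L-OBCs and 5.48 ± 0.846 FPKM in C-OBCs (SD, n = 4 each), a log2 difference of -0.36 (SE 0.22) that was -0.22 without L-OBCs library 1 and -0.12 without L-OBCs libraries 1 and 2. The log2 differences of the rest were -0.23 for Slc39a9, -0.13 for Slc30a4, -0.09 for Slc39a11, -0.04 for Slc39a6 and 0.00 for Slc39a3. Mtf1, the factor that senses zinc for Mt1, Mt2 and Slc30a1, stood at 0.99, 1.03, 1.26 and 1.13 FPKM in L-OBCs libraries 1 to 4, against 1.2, 1.18, 0.99 and 1.47 FPKM in C-OBCs libraries 1 to 4. Its groups overlapped fully, with a log2 difference of -0.07 (SE 0.17; limma adjusted p = 0.939). The 8 genes not tested, among them Slc30a2, Slc39a2, Slc39a4 and the zinc-sensing receptor Gpr39, were at or under 2.14 FPKM in every library.

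Of 8 secreted or cell-surface enzymes that need zinc, 8 were tested and 0 passed the limma threshold, against 0% of all genes tested in each direction. Alpl, which receives its zinc through Slc30a5, Slc30a6 and Slc30a7, stood at 791, 462, 690 and 865 FPKM in L-OBCs libraries 1 to 4, against 788, 757, 763 and 661 FPKM in C-OBCs libraries 1 to 4. Its log2 difference was -0.12 (SE 0.22; limma adjusted p = 0.914), with L-OBCs library 2 as the lowest and library 4 as the highest of all 8. Phex, a zinc peptidase of osteocytes and osteoblasts, was known from earlier results of these data to be lower in all L-OBCs libraries, with a log2 difference of -0.92 (SE 0.22). The pyrophosphate-generating Enpp1 (-0.11), the membrane protease Mmp14 (-0.15) and the procollagen C-proteinase Bmp1 (-0.14) had small negative log2 differences. The lysophospholipase Enpp2 (0.42), the gelatinase Mmp2 (0.26) and the collagenase Mmp13 (0.25) had positive ones, with limma adjusted p from 0.695 to 0.887 for these 3. With 1 library left out, Mmp13 ran from 0.019 (without C-OBCs library 2) to 0.58 (without C-OBCs library 3) and Mmp2 from 0.089 to 0.37, and Mmp2 was at 0.53 without L-OBCs libraries 1 and 2.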

How the data were processed

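Libraries were prepared from RNA of sorted osteoblastic cells with the SMART-Seq v4 Ultra Low Input kit, as the labels' protocols state, and the 8 libraries were grouped by disease state. Per the submitters' processing notes, the tools were RSEM 1.2.8, Bowtie2 2.2.5, HISAT2 2.0.4 and DESeq2 with the build GRCm38.p6, and their roles are not given. The authors deposited FPKM values, their group means and a log2 ratio of the groups, per the file headers; the group means and the log2 ratio were not used. In ratios of low values, no bin of 0.03 log2 units held more than 2.44% of genes, so whole reads could not be recovered and the depth behind each value is unknown.

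Values were analysed as log2(FPKM + 1) with limma 3.58.1 (R 4.3.3), a mean-variance trend, no covariates and two-sided tests, with Benjamini-Hochberg adjustment over the 11214 genes that reached 1 FPKM in 4 or more libraries. The step was checked on simulated data with 200 changed genes. Noise in that simulation was drawn independently for each gene, without a length trend, so the check does not cover the trends of these libraries. Correlations used exact permutation (numpy 2.4.6, scipy 1.17.1). Transcript lengths are medians over basic coding transcripts of GENCODE M21, known for 99.1% of genes tested, and the length trend was removed per library by lowess with a span of 0.3. Positions and promoters came from RefSeq GRCm38.p6, and a promoter was matched for 9 of the 10 genes. Same-numbered libraries of the 2 groups did not deviate together in every pair (correlations of deviations 0.12, -0.05, -0.07 and 0.22 for numbers 1 to 4). L-OBCs libraries 1 and 4 correlated best with the C-OBCs library of their own number, and L-OBCs libraries 2 and 3 with C-OBCs libraries 1 and 4.

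The members, lists and tests were chosen with earlier results of these data known. The naming rule took the 10 members, the tested genes of 2 lists and the 5 genes most like Slc30a9 and Mt1. The untested genes named, Slc30a6 and Slc39a8 beside their partners, and the chromosomal neighbours were added for context. Alternatives were a pseudocount of 0.1, no filter, 3 other scalings, array weights, a replicate block, the length trend removed, and libraries left out.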

Additional observations from a re-analysis of the deposited data

Results flagged for a closer look

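In 2 of 20 gene-by-group sets of 4 libraries, 1 library stood apart from the others by the gap test of Dixon, which flags about 1 in 20 sets by chance. Slc39a13 in L-OBCs library 2, at 47.4 FPKM, lay below the other 3 L-OBCs libraries at 63.4 to 64.8 FPKM. Slc39a1 in C-OBCs library 1, at 50.5 FPKM, lay above the other 3 C-OBCs libraries at 34.8 to 36.5 FPKM.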

How the results depend on the processing

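The count of genes higher in L-OBCs past the limma threshold was 0 with all libraries. It was 1 without the filter, 2 with TPM, 3 with quantile normalization, 6 with array weights, 3 with the length trend removed and 0 to 2 when a library was left out. The count of lower genes was 0 in every alternative run. Of 442 differences over 26 genes and all alternatives, 407 kept their direction and 35 changed sign. Leaving aside Slc30a9, which is given without a test, 0 passed (lowest limma adjusted p 0.0846, Mt1 and Mt2 without L-OBCs library 4). Slc30a9 ran from -1.033 (TPM) to -0.72 (length trend removed), and it was -0.98 with a pseudocount of 0.1. TPM shifted the median of all genes to -0.15. Signs changed without L-OBCs libraries 1 and 2 for Slc30a7 (0.073), Slc39a1 (-0.19), Slc39a7 (0.20), Mt1 (-0.18), Mt2 (-0.031), Slc30a4 (0.18), Slc39a6 (0.10), Slc39a9 (0.074), Slc39a11 (0.32), Alpl (0.061), Enpp1 (0.0044) and Bmp1 (0.073). They changed with the length trend removed for Mt2 (-0.14), Slc39a6 (0.036) and Mtf1 (0.077), and with array weights for Slc30a4 (0.047), Slc39a9 (0.013), Slc39a11 (0.021) and Enpp1 (0.0043). Slc39a3 changed with TPM (-0.12) and quantile normalization (-0.012). With 1 library left out, the ranges that crossed 0 were -0.26 to 0.085 for Slc39a7, -0.27 to 0.15 for Slc30a4, -0.13 to 0.14 for Slc39a3, -0.17 to 0.048 for Slc39a6, -0.34 to 0.25 for Slc39a11, -0.23 to 0.072 for Alpl, -0.19 to 0.017 for Enpp1 and -0.32 to 0.050 for Bmp1. Without crossing 0, they were wide for Mt1 (0.41 without L-OBCs library 2 to 1.33 without L-OBCs library 4), Mt2 (0.48 to 1.32) and Slc39a1 (0.35 to 1.255) with the same libraries left out, and for Slc30a7 (-0.46 to -0.10), Slc39a14 (0.12 to 0.31), Slc39a9 (-0.39 to -0.046), Mmp14 (-0.26 to -0.020) and Mtf1 (-0.12 to -0.015). The cause was not tested. With the replicate block, 0 genes passed in either direction, and unadjusted calls were 633 higher and 405 lower, although same-numbered libraries did not deviate together in every pair. The Mt1 and Mt2 correlation ran from 0.932 to 0.981 with 1 library left out. Depth is unknown, so the precision of low genes such as Slc30a1 cannot be given.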
